A study of Mus musculus with 8 samples.

Results

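Expression of 9 neural crest genes was followed in a tissue of the mouse embryo, the posterior second heart field (pSHF): Sox9, Sox10, Tfap2a, Tfap2b, Pax3, Erbb3, Ednrb, Snai2 and Ret. Every non-control probe that the array file names for one of the 9 genes was taken, in both genotypes and whatever its signal. They were measured by 21 probes on 48 spots, out of 41174 probes on 43379 spots of the array. The array names 16 of these probes by the symbol itself, for 7 of the genes, and the other 5 by the older symbols Tcfap2a and Tcfap2b.

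The neural crest arises at the border of the neural plate, leaves the closing neural tube by an epithelial-to-mesenchymal transition and migrates through the embryo. At the level of the heart and the foregut, its cells move towards the pharyngeal arches, the outflow tract and the gut wall, where they form smooth muscle, mesenchyme, glia and enteric neurons. Border factors (Pax3, Tfap2a, Tfap2b) precede the factors of crest specification and delamination (Snai2, Sox9, Sox10), and migrating cells carry receptors for signals met on their way (Erbb3 for neuregulins, Ednrb for endothelins, Ret for GDNF-family ligands). The pSHF, the mesenchyme behind the heart that supplies cells to the atrial septum, expresses the T-box factor gene Tbx5, and is itself mesoderm.

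The tissue came from embryos at E9.5 on a mixed genetic background, from females given gonadotropins to enlarge their litters. Tissue of 4 samples was heterozygous for a Tbx5 mutation (Tbx5-/+) and tissue of 4 samples was Tbx5 WT. No other allele or agent is given for either group. Each sample was a pool of RNA, and the number of embryos in a pool is not given in the sources used here. The neural tube was taken away by a cut through the foregut, and the pSHF was separated from the anterior field between the outflow and inflow tracts. Samples carry the numbers 1, 5, 6 and 7 in each genotype, with numbers 1 and 5 on array label 1 and numbers 6 and 7 on array label 2. Nothing states that the pools came from separate litters, so the p-values measure the spread between these samples. Values are log2 intensities after variance stabilization (VSN), and a difference is Tbx5-/+ minus Tbx5 WT on that scale. In pools of tissue, fewer cells of a type and less RNA per cell cannot be told apart.

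Tbx5 itself checks the genotype labels. Its brighter probe read 9.01, 9.73, 9.16 and 8.62 in Tbx5-/+ replicates 1, 5, 6 and 7 and 11.46, 11.55, 10.42 and 11.54 in Tbx5 WT replicates 1, 5, 6 and 7. The groups did not overlap (difference -2.11, limma adjusted p = 0.0936, and 0.0345 with the replicate number as a block). The other Tbx5 probe differed by -0.15 (adjusted p = 0.797), and which part of the gene the mutation removes was not checked. One library stood apart. In Tbx5-/+ replicate 1, the summed signal of 12 pSHF markers, Tbx5 among them, was 14.97 on the log2 scale, against 16.80 to 17.38 in the other Tbx5-/+ samples and 16.09 to 16.49 in Tbx5 WT. Bright markers weigh most in this sum, and 7 of the 12 markers were lower in sign in Tbx5-/+. Between 45.0% and 52.8% of spots were well above background in Tbx5-/+ and between 50.9% and 63.6% in Tbx5 WT. Over all probes tested the median difference was -0.19, so a value near -0.19 is that of a typical probe.

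Transcripts of 7 of the 9 genes were well above background throughout at least 1 genotype. Of the 21 probes, 7 were well above background on all 8 arrays and 7 on none. The test took in probes with a signal well above background throughout a genotype (4 of 4 arrays), which held for 9 probes of 7 genes (Tfap2a, Tfap2b, Snai2, Sox9, Sox10, Erbb3 and Ednrb). The other 12 probes were not tested, among them all those of Pax3 and Ret. The probes tested passed through either genotype, so their number is not evidence of a difference.

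Detection differed between probes of one gene, which decides what the array could measure. Erbb3 was read by 1 of its 5 probes, Tfap2b by 1 of 3, Sox10 by 1 of 2, Tfap2a by 1 of 2, Sox9 by 2 of 3 and Ednrb by both. In Tfap2a, Sox9, Sox10 and Erbb3 the dim probes all lay nearer the 5′ end than the probes tested. For Sox10 the probe at base 2356 of the transcript was well above background on all 8 arrays and that at base 947 on 2. For Erbb3 the probe at base 3448 was well above background on all 8 arrays, that at base 3262 on 1, and those at bases 2616, 2596 and 332 on none. Tfap2b went against this order, since its dim probes at bases 1766 and 3874 lay behind the probe tested at base 1726. The cRNA was made by linear amplification, and the part of this step in the pattern was not tested.

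**Figure D1:**
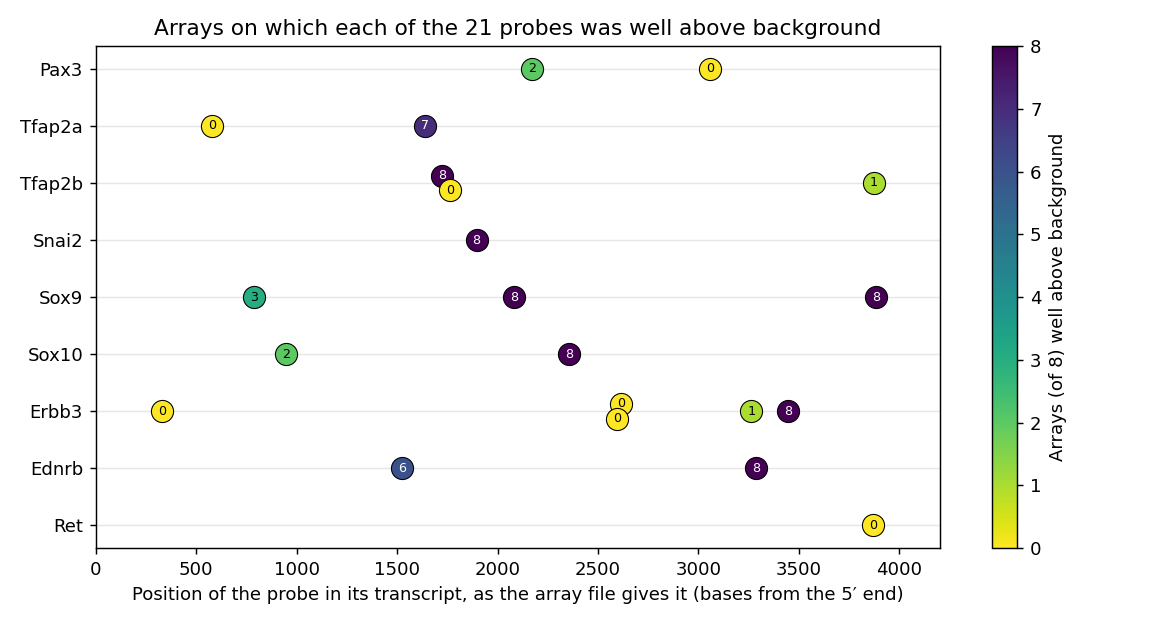
Each circle is 1 of the 21 probes, placed by its position in the transcript in bases (x axis) and by gene (y axis), and the number and colour give on how many of the 8 arrays it was well above background. The 2 Sox9 probes at bases 2082 and 3883 read 8 and that at base 786 reads 3, and in Erbb3 only the probe at base 3448 reads 8.

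The sequences of dim probes are given because they fix which stretch of each transcript gave too little signal to be tested. They are 60 bases long and written 5′ to 3′ in the direction of the transcript. In Erbb3, the dim probes at bases 2596 and 2616 both lie in the part that encodes the kinase-like domain and share 40 bases, shown in capitals, so they are a single reading taken from overlapping sequence. Their values moved together over the 8 arrays (Pearson's r = 0.92) while none of these values was well above background. The first is placed at chr10:128009215-128009503 and the second at chr10:128009195-128009254 on the minus strand of mm9.
Erbb3 A_51_P488243: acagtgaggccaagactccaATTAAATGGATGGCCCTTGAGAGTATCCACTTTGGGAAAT
Erbb3 A_51_P342050: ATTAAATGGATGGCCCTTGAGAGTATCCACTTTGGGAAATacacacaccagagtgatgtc

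The dim Sox9 probe lies in the sequence of the DNA-binding HMG box (chr11:112644310-112645162, plus strand), the dim Sox10 probe in coding sequence (chr15:78986883-78986942, minus strand) and the dim Tfap2a probe in coding sequence (chr13:40820499-40823719, minus strand). The genomic spans of the Sox9 and Tfap2a probes are longer than the probes, as for the first Erbb3 probe, so each of the 3 crosses a splice junction. Exons and UTRs of mm9 were not analysed here.
Sox9 A_51_P451606: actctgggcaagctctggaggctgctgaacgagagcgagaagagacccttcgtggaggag
Sox10 A_52_P192625: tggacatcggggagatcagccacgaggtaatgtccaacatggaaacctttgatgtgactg
Tfap2a A_51_P443062: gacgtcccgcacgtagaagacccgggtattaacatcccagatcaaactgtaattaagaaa

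In Tfap2b the probe tested and a probe that was dim on all 8 arrays overlap by 20 bases, printed here because probes that share a part of their sequence differed in detection.
Tfap2b shared by A_51_P248345 and A_51_P248344: AATTATATTAGGTAGAATAC

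No neural crest probe differed between the genotypes past the threshold. Of the 9 probes tested, 0 had an adjusted p under 0.05 (limma with Benjamini-Hochberg adjustment over 20028 probes), and the same was true of 0% of all probes tested. At an unadjusted p under 0.05, 0 of the 9 differed against 21.7% of all probes (18.2% lower in Tbx5-/+ and 3.48% higher). Both shares depended on the scaling of the arrays, with 8.67% of all probes lower and 15.4% higher under the 75th percentile scaling, 9.35% and 9.56% under quantile normalization, and 6.66% and 16.2% with arrays centred on their medians. The genotypes did not overlap for 0 of the 9, against 9.56% of all probes (8.81% lower and 0.759% higher). By sign alone 6 of 9 were lower, against 65% of all probes. The median difference of the 9 was -0.06 beside -0.19 for all probes. Both moved with the scaling, to 3 lower with a median of 0.28 (75th percentile), 3 with 0.090 (quantile) and 2 with 0.26 (array medians), and array weights gave a median of -0.32 beside -0.14 for all probes. The smallest adjusted p among the 9 was 0.245. With the replicate number as a block 0 of the 9 were called, while 10.3% of all probes were called lower and 0.369% higher.

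**Figure D2:**
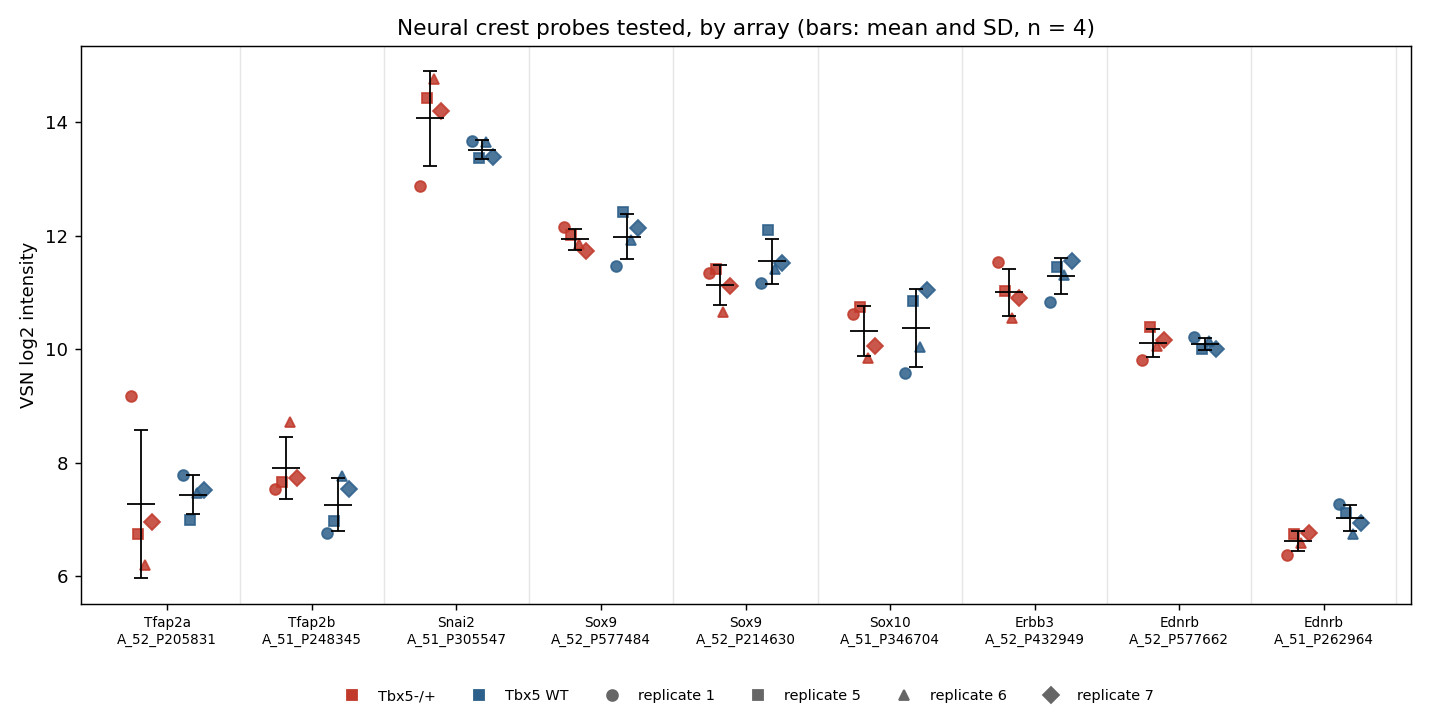
VSN log2 intensity (y axis) of the 9 probes tested, by probe (x axis). Each point is 1 array, its shape the replicate number, and the bars are the mean and SD of 4 arrays. The groups overlap for each of the 9 probes, and Tbx5-/+ replicate 1 is the highest of its group for Tfap2a (9.18) and the lowest for Snai2 (12.87).

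Among the border factors, Pax3, a paired-box factor of the dorsal neural tube, the crest and the somites, was not well above background on any Tbx5-/+ array. Its probe at chr1:78099476-78099535, printed on 10 spots, was well above background in 2 of 4 Tbx5 WT samples. That at chr1:78180183-78180242 was so in none of the 8. The values ran from 4.78 to 6.31 over both probes, a range in which no order can be read.

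Tfap2a encodes AP-2alpha, made in crest and in surface ectoderm. Its probe at chr13:40812207-40812266 (minus strand) read 9.18, 6.75, 6.20 and 6.95 in Tbx5-/+ replicates 1, 5, 6 and 7, well above background in 3 of them. It read 7.79, 6.98, 7.47 and 7.52 in Tbx5 WT replicates 1, 5, 6 and 7. This probe entered the test through Tbx5 WT alone, the group with the higher mean. Replicate 1 of Tbx5-/+ was the highest of the 8 samples, while the other 3 lay below each Tbx5 WT sample. The difference was -0.17 ± 0.55 (SE, n = 4 a group, adjusted p = 0.866), with a 95% confidence interval from -1.52 to 1.18. Without Tbx5-/+ replicate 1 it was -0.81 (adjusted p = 0.0542). The spread within groups (pooled SD 0.96) exceeded that of 97.0% of the probes tested.

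Tfap2b encodes the related factor AP-2beta, which is also needed in crest derivatives. Its probe at chr1:19224486-19224545 (plus strand) read 7.54, 7.66, 8.72 and 7.74 in Tbx5-/+ and 6.76, 6.97, 7.77 and 7.55 in Tbx5 WT, replicates in the same order. Each Tbx5-/+ sample was above the Tbx5 WT sample of the same number, by 0.19 to 0.95, but the groups overlapped. The difference was 0.65 ± 0.32 (SE, n = 4 a group, adjusted p = 0.256, exact permutation p = 0.2), and it was higher than that of 96.6% of the probes tested. With the replicate number as a block the unadjusted limma p was 0.0093 and the adjusted p 0.0625. Without Tbx5-/+ replicate 6 the difference was 0.38 (adjusted p = 0.543), and with array weights it was 0.39 (adjusted p = 0.166). The remaining Tfap2b probes gave values from 4.19 to 6.83 and were well above background on 1 array in all.

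Snai2 encodes Slug, a zinc-finger repressor active in delaminating crest and in mesenchyme more widely. Its only probe, at chr16:14709361-14709420 (plus strand), read 12.87, 14.44, 14.77 and 14.21 in Tbx5-/+ replicates 1, 5, 6 and 7. In Tbx5 WT it read 13.67, 13.37, 13.65 and 13.40. Replicate 1 of Tbx5-/+ was the lowest of all 8 samples and the other 3 Tbx5-/+ samples were the highest. The difference was 0.55 ± 0.37 (SE, n = 4 a group, adjusted p = 0.367), a 1.46-fold higher mean, with a 95% confidence interval from -0.35 to 1.44. Without Tbx5-/+ replicate 1 it was 0.95 (adjusted p = 0.0189), a fit in which 7.19% of all probes were called higher and 12.1% lower. Without Tbx5-/+ replicate 6 it was 0.32 (adjusted p = 0.712). Within array label 1 it was 0.13 and within array label 2 it was 0.96. Snai2 moved with the summed pSHF markers over the 8 arrays (r = 0.94, rho = 0.98), and the part of those markers in the difference was not tested. Bright markers weigh most in that sum, while 7 of the 12 markers were lower in sign in Tbx5-/+ (median difference -0.41).

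The SoxE factors Sox9 and Sox10 follow in order of action. Sox9 acts in early crest, and also in the neural tube, the sclerotome and cartilage. Its brightest probe, at chr11:112647008-112647067 (plus strand), read 12.16, 12.01, 11.86 and 11.74 in Tbx5-/+ replicates 1, 5, 6 and 7 and 11.47, 12.42, 11.92 and 12.14 in Tbx5 WT. The Tbx5-/+ samples lay inside the Tbx5 WT range. The difference was -0.05 ± 0.23 (SE, n = 4 a group, adjusted p = 0.913), with a 95% confidence interval from -0.62 to 0.52. Its second probe, at chr11:112648809-112648868 on 10 spots, read 11.36, 11.42, 10.65 and 11.11 in Tbx5-/+ and 11.17, 12.10, 11.42 and 11.52 in Tbx5 WT. Here the difference was -0.42 ± 0.26 (adjusted p = 0.335), and it was -0.078 under the 75th percentile scaling and -0.10 with array-median centring. Over the arrays left out it ran from -0.55 (without Tbx5 WT replicate 1) to -0.23 (without Tbx5 WT replicate 5). Values of both probes were related across the 8 arrays (r = 0.71) and neither difference passed the test.

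Sox10 marks migrating crest and is kept in glia and enteric progenitors. Its probe at chr15:78985505-78985564 (minus strand) read 10.63, 10.75, 9.84 and 10.06 in Tbx5-/+ replicates 1, 5, 6 and 7 and 9.59, 10.85, 10.04 and 11.04 in Tbx5 WT. The lowest and the highest sample were both Tbx5 WT. The difference was -0.06 ± 0.35 (SE, n = 4 a group, adjusted p = 0.931), and the 95% confidence interval ran from -0.92 to 0.81. The sign of the Sox10 and of the first Sox9 difference turned to positive under 3 other scalings of the arrays.

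Erbb3, a neuregulin receptor that needs a partner receptor for its kinase activity, is carried by migrating crest and Schwann cell precursors. Its probe at chr10:128004749-128004808 (minus strand) read 11.54, 11.02, 10.55 and 10.90 in Tbx5-/+ replicates 1, 5, 6 and 7. In Tbx5 WT it read 10.84, 11.46, 11.32 and 11.56. The difference was -0.29 ± 0.25 (SE, n = 4 a group, adjusted p = 0.486). It was 0.13 within array label 1 and -0.71 within array label 2. Over the arrays left out it ran from -0.47 (without Tbx5-/+ replicate 1) to -0.14 (without Tbx5-/+ replicate 6). With arrays weighted by their quality it was -0.53 (adjusted p = 0.0191), a fit that called 43.3% of all probes.

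Ednrb, the endothelin receptor of enteric and melanocyte precursors, which endothelium also carries, was read by 2 probes. The brighter, at chr14:104214484-104214543 (minus strand), had the smallest spread of the 9 probes, with 9.81, 10.40, 10.07 and 10.16 in Tbx5-/+ and 10.21, 10.01, 10.14 and 10.001 in Tbx5 WT. The difference was 0.02 ± 0.19 (SE, n = 4 a group, adjusted p = 0.958), with a 95% confidence interval from -0.44 to 0.48. It was 0.36, 0.31 and 0.34 under the 75th percentile, quantile and array-median scalings. The dimmer probe, at chr14:104216247-104216306, read 6.38, 6.75, 6.58 and 6.76 in Tbx5-/+, well above background in 2 samples, and 7.28, 7.12, 6.75 and 6.93 in Tbx5 WT. It entered the test through Tbx5 WT alone, the group where it was brighter, so its direction is a description. Each Tbx5-/+ sample lay below the Tbx5 WT sample of the same number, the difference was -0.40 ± 0.19 (adjusted p = 0.245, exact permutation p = 0.0571), and it was -0.64 within array label 1 and -0.17 within array label 2. With arrays centred on their medians it was -0.088. The sign differed between the probes, and neither passed the test. Ret, the receptor of enteric crest for GDNF, was not well above background on any array (chr6:118103903-118103962, 10 spots, values from 5.22 to 5.82).

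**Figure D3:**
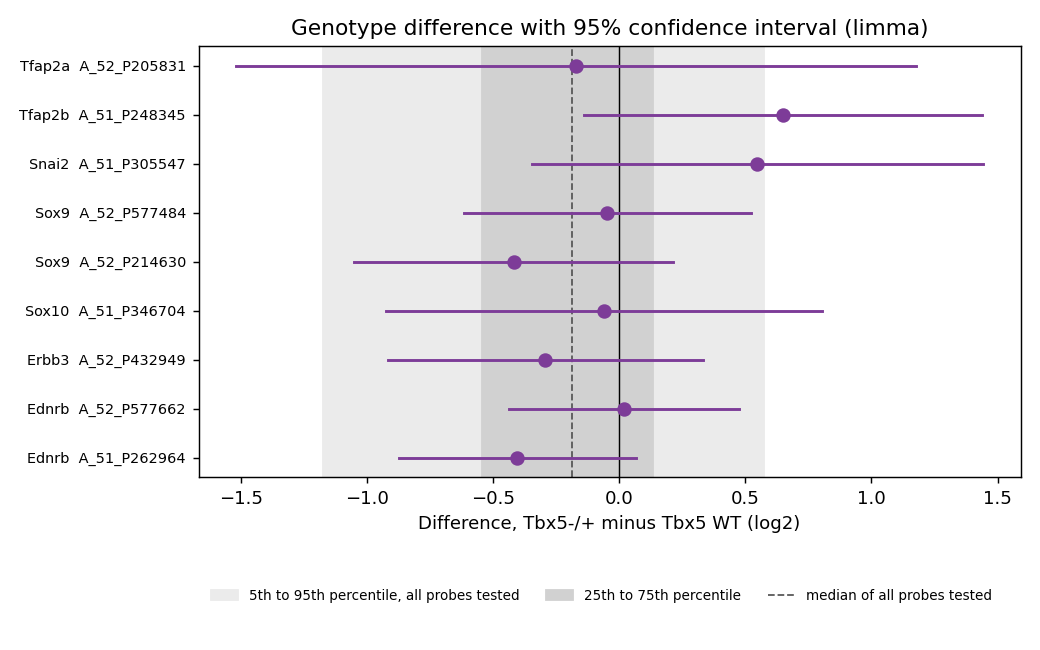
Differences between the genotypes in log2 (x axis) for the 9 probes tested (y axis), each with its 95% confidence interval from limma. Grey bands give the 5th to 95th and 25th to 75th percentiles of the differences of all probes tested and the dashed line their median of -0.19. All 9 intervals include 0, and Tfap2b (0.65) lies beyond the 95th percentile of 0.57.

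None of the tested ligands and partners of the 3 receptors passed the test. Of 20 such genes 18 had a probe and 9 were tested, of which 0 had an adjusted p under 0.05 and 0 an unadjusted p under 0.05 in either direction. Over all probes tested these shares were 0% and 21.7%. The median difference of the 9 was 0.02. For ERBB3, the neuregulin gene Nrg1 differed by 0.05, and the genes of its partner receptors by -0.18 (Erbb2) and 0.29 (Egfr). Nrg3, Nrg4 and Erbb4 were not tested and Nrg2 had no probe. For EDNRB, Edn1 differed by 0.02 and Ece1, whose enzyme cleaves endothelin precursors, by 0.51 (adjusted p = 0.375, and 0.84 with adjusted p = 0.0435 without Tbx5-/+ replicate 1), while Edn2 and Edn3 were not tested. The fit without that replicate called 12.1% of all probes lower and 7.19% higher. For RET, Nrtn differed by -0.77 (adjusted p = 0.275), and the co-receptor genes Gfra1, Gfra3 and Gfra4 by -0.52, 0.10 and -0.41. Gdnf, Artn, Pspn and Gfra2 were not tested and Gfral had no probe. Gdnf was well above background in 1 Tbx5-/+ and 3 Tbx5 WT samples.

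The wider lists of crest genes gave 0 calls after adjustment as well (limma), and 0 genes that were higher at an unadjusted p under 0.05. Of the factors of the border and of premigratory crest, 11 of 16 were tested and 1 was lower at an unadjusted p under 0.05, with a median difference of -0.16. Of the genes of crest glia and migrating crest, 9 of 12 were tested and 4 were lower (median -0.55). Their summed signal was 15.34 in Tbx5-/+ replicate 1, 14.12 to 14.37 in the other Tbx5-/+ samples and 13.98 to 14.58 in Tbx5 WT. Of enteric and autonomic crest, 7 of 10 were tested and 0 were lower (median -0.21). Of cardiac and mesenchymal crest, 11 of 12 were tested and 4 were lower (median -0.46). These shares stand beside the 18.2% of all probes that were lower at that threshold, and the medians beside -0.19. The lists hold 1 probe a gene, and with 1 probe a gene over the whole array the values were 15.3% and -0.13. With the replicate number as a block, the genes with an adjusted p under 0.05 were all lower and numbered 1, 2, 0 and 3 in these 4 lists in turn, beside the 10.3% of all probes called lower in that fit. Cdh6, a cadherin gene of migrating crest named here after its values were seen, was 1 of them. Without Tbx5-/+ replicate 1, called genes numbered 1, 3, 0 and 3 in the 4 lists, all lower but for Ednra, the endothelin A receptor gene (0.80, adjusted p = 0.0292), which is likewise named after its values were seen. That fit called 12.1% of all probes lower and 7.19% higher.

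Among those genes, Itga4, the alpha 4 integrin subunit, read 7.53, 6.84, 7.83 and 7.06 in Tbx5-/+ replicates 1, 5, 6 and 7 and 8.34, 8.98, 9.22 and 9.36 in Tbx5 WT. Its groups did not overlap (difference -1.66, adjusted p = 0.0936, and 0.0345 with the replicate block), though 5 further Itga4 probes were too dim to test. Tbx3, a T-box gene also of the heart and foregut, read 12.75, 12.81, 12.08 and 12.21 in Tbx5-/+ and 13.03, 13.83, 13.36 and 13.94 in Tbx5 WT, again without overlap (-1.08, adjusted p = 0.107, and 0.0411 with the block). Prrx1, a homeobox gene of mesenchyme, differed by -1.65 (adjusted p = 0.121, and 0.0477 with the block), with -1.47, -1.53 and -0.05 at its other 3 tested probes. In the main fit, unpaired and unweighted over all 8 arrays, none of these passed the threshold. Without Tbx5-/+ replicate 1 the adjusted p was 0.0142 for Itga4, 0.0286 for Tbx3 and 0.0118 for Prrx1. That fit called 12.1% of all probes lower. Itga4 also passed without Tbx5 WT replicate 1 (adjusted p = 0.0264), and array weights called each of these, beside 43.3% of all probes. Twist1, a factor of mesenchyme and crest, differed by -0.72 (adjusted p = 0.198). It had an adjusted p of 0.041 with the block, 0.0498 without Tbx5-/+ replicate 1 and 0.0128 with array weights. Mitf, the melanocyte factor gene, was not well above background on any Tbx5-/+ array and was so on 4 of 4 Tbx5 WT arrays, a bound of at least 1.40-fold lower (adjusted p = 0.164). It entered the test through Tbx5 WT alone, the group where it was brighter, and its groups overlapped (6.76 in Tbx5-/+ replicate 1 and 6.69 in Tbx5 WT replicate 1), so the bound is a description.

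Across the 8 arrays several crest probes varied with each other. Sox9 and Sox10 were related most strongly (r = 0.87, rho = 0.81, and r = 0.83 without the 2 samples farthest from the Sox9 median, left out likewise in each relation). Erbb3 went with Sox10 (r = 0.76, rho = 0.81, and 0.66 without the farthest 2) and with Sox9 (r = 0.72, rho = 0.81, and 0.78). Snai2 ran against Erbb3 (r = -0.86, rho = -0.83, and -0.70) and against Tfap2a (r = -0.85, rho = -0.79, and -0.60). These are the 5 strongest of 21 relations among the 7 genes, given as descriptions with no test, over 8 arrays that share their dissection and scaling. Within the genotypes, as deviations from the group means, the same values were 0.87, 0.81, 0.76, -0.82 and -0.92. An array label held 4 arrays, too few for a value of its own.

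Markers of neighbouring tissue, and genes of wider crest lists, were related to Sox9, Sox10 and Erbb3. The summed signal of 15 neural tube genes with a probe, 7 of them tested, ran from 14.19 to 14.70 in Tbx5-/+ and from 13.66 to 15.26 in Tbx5 WT. It followed Sox9 (r = 0.96, rho = 0.90, and 0.81 without the 2 samples farthest from the median sum), Sox10 (r = 0.90, rho = 0.95, and 0.97) and Erbb3 (r = 0.70, rho = 0.81, and 0.79). Of the defining neural tube genes, Sox1 was well above background on none of the 8 arrays and Pax6 and Sox2, which foregut also expresses, on all 8. The summed signal of 11 somite genes with a probe, 7 of them tested, ran from 13.33 to 14.61 in Tbx5-/+ and from 13.36 to 14.80 in Tbx5 WT and followed Sox10 (r = 0.79, rho = 0.88, and 0.72) and Sox9 (r = 0.70, rho = 0.67, and 0.56). Its relation to Erbb3 was weaker (r = 0.51, rho = 0.60, and 0.097). Among somite genes Meox1, Tcf15, Pax1 and Foxc2 were well above background on all 8 arrays and Myf5 on none. In Tbx5 WT the lowest sum of both lists was in replicate 1 and the highest in replicate 5, and Sox9 had its lowest and highest values there too. None of the tested genes of either list had an unadjusted p under 0.05. The part of these tissues in the Sox9, Sox10 and Erbb3 values was not tested. The summed genes of crest glia and migrating crest also went with Sox9 (r = 0.66, rho = 0.90), Sox10 (r = 0.64, rho = 0.83) and Erbb3 (r = 0.73, rho = 0.83). For enteric and autonomic crest r was 0.79, 0.65 and 0.45 in the same order. All these relations are picked from those of every list with every tested probe, and are descriptions.

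**Figure D4:**
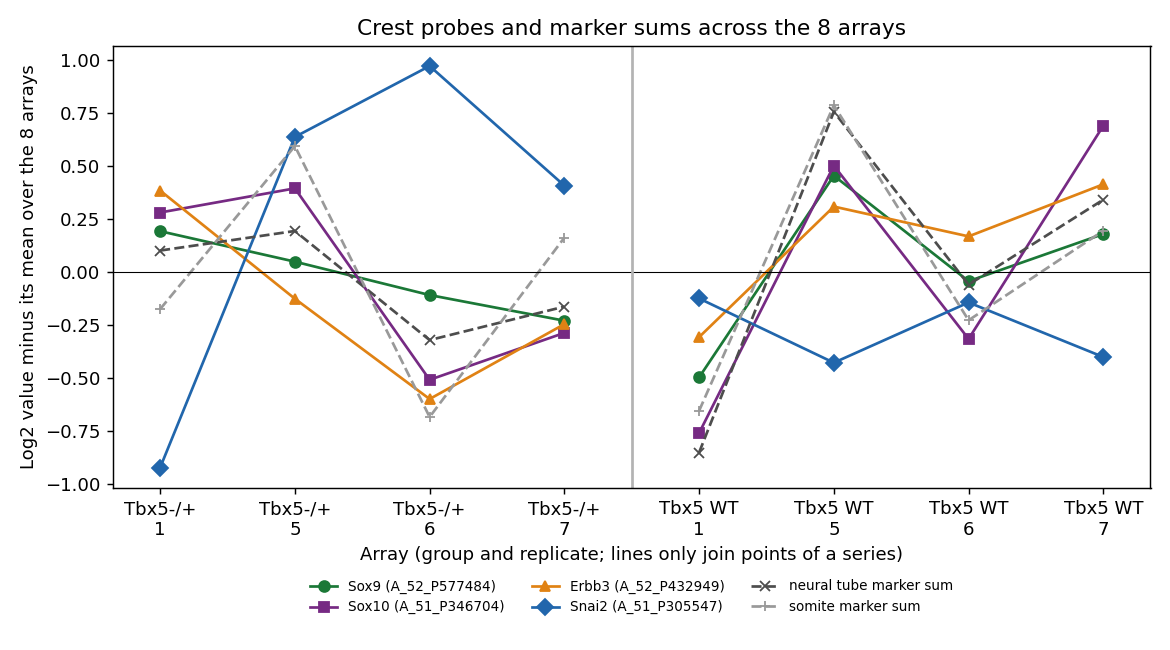
Log2 value minus its mean over the 8 arrays (y axis) for 4 crest probes (solid lines) and for the summed signals of neural tube and somite markers (dashed lines), by array (x axis). Sox9, Sox10 and the neural tube sum have their lowest Tbx5 WT value in replicate 1, and Snai2 has its lowest value of all in Tbx5-/+ replicate 1.

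Markers of other tissues in the dissection or next to it gave their own ranges. Surface ectoderm markers (10 of 11 with a probe tested) summed to 16.53 to 16.95 in Tbx5-/+ and 16.14 to 17.50 in Tbx5 WT. Foregut markers (11 of 12 tested) summed to 14.09 to 14.50 and 14.66 to 15.58, and all 11 were lower in sign in Tbx5-/+, 2 of them at an unadjusted p under 0.05. Endothelial markers (12 of 12) summed to 15.14 to 15.52 and 15.45 to 15.76, with 9 lower in sign, 5 of them at an unadjusted p under 0.05, and a median difference of -0.43. Of the pSHF markers (12 of 12), 5 were lower at an unadjusted p under 0.05, with a median difference of -0.41. These shares stand beside those of the crest lists. Cardiomyocyte markers (12 of 12) summed to 18.23 to 19.40 and 18.52 to 19.13. The foregut sum was the one of these that did not overlap between the genotypes. Its relation to the dimmer Ednrb probe, which was also lower in sign in Tbx5-/+ but entered the test through Tbx5 WT alone, had r = 0.88 (rho = 0.81, 0.62 without the 2 farthest samples and 0.73 within genotypes). That to the brighter Ednrb probe had r = 0.29 (rho = 0.095, -0.61 without the farthest 2 and 0.50 within genotypes). Its part in either was not tested.

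Pairs of samples with the same number showed how far 1 pair set the differences. For 6 of the 9 probes the difference in pair 1 had the opposite sign to that of all 3 other pairs, which was true of 29.1% of all probes. These were both Sox9 probes and those of Tfap2a, Snai2, Sox10 and Erbb3. For Snai2 the 4 pairs gave -0.80, 1.07, 1.12 and 0.81, and for Erbb3 0.69, -0.43, -0.77 and -0.66, in the order of numbers 1, 5, 6 and 7. For Sox10 they gave 1.04, -0.11, -0.19 and -0.98. In 2 of the 9 probes all pairs had the same sign, against 39.8% of all probes, namely Tfap2b (higher) and the dimmer Ednrb probe (lower). The latter entered the test through Tbx5 WT alone, the group where it was brighter.

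**Figure D5:**
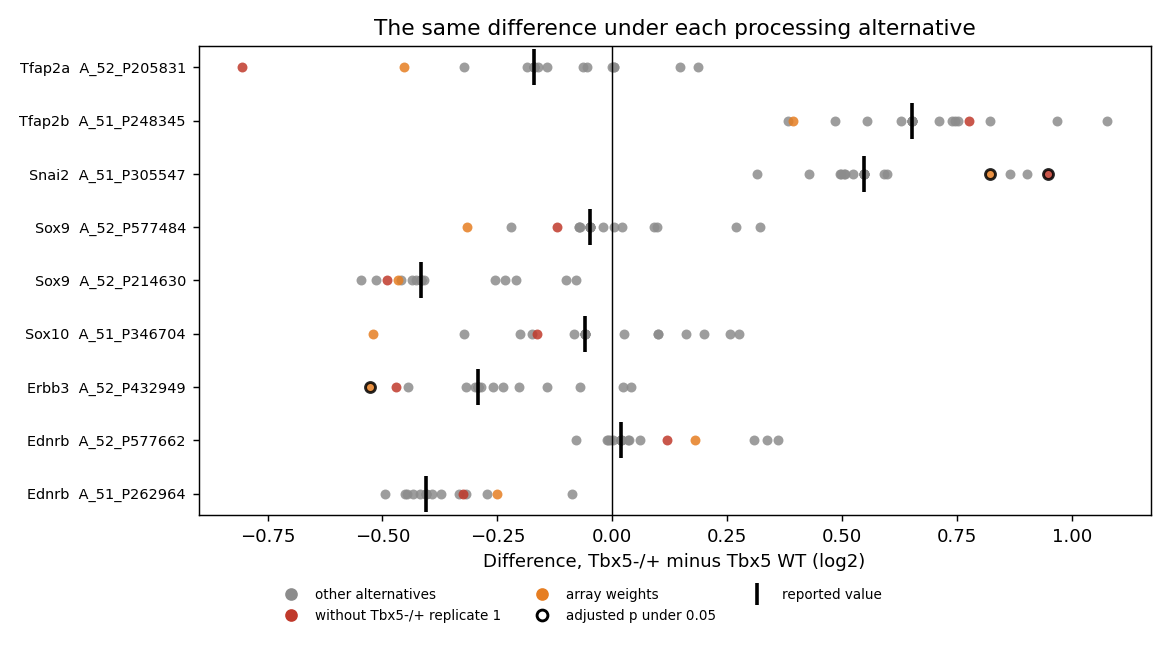
The difference between the genotypes in log2 (x axis) for each of the 9 probes (y axis) under each processing alternative, with the reported value as a bar. Snai2 and Tfap2b stay above 0 under all alternatives, and a black ring marks an adjusted p under 0.05, seen for Snai2 without Tbx5-/+ replicate 1 (0.95) and with array weights (0.82) and for Erbb3 with array weights (-0.53).

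The genes with the most similar profiles over the 8 arrays were found among 13944 others, by Pearson's r between brightest tested probes and with no test. For Sox10 they were Col15a1 (r = 0.96) and Gprc5b (0.95), and 9 genes had r over 0.9. For Sox9 they were the clone 8430408G22Rik (0.97) and Brsk2 (0.94), with 11 genes over 0.9. For Erbb3 they were Spred2 (0.95) and Hip1 (0.95), with 38 over 0.9. For Ednrb they were Entpd1 and Ubr3 (0.95 and 0.94, with 11 over 0.9), and for Tfap2a they were Cldn9 and Slc2a6 (0.99 and 0.97, with 48). For Tfap2b they were a transcript without a symbol (0.98) and Bcl2l15 (0.98), with 40 over 0.9. Snai2 had a far more common profile, with 1201 genes over 0.9, led by a locus without a symbol (0.997) and Top2b (0.99).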

How the data were processed

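Arrays of an Agilent whole mouse genome design (60-base probes, mm9) were hybridized with 1 Cy3-labelled cRNA each. Per the file headers, spot intensity on a linear scale came from Agilent Feature Extraction 10.5.1.1, and the authors deposited background-corrected, VSN-normalized log2 values of 22405 probes. Here each spot's mean intensity was reduced by its median local background, 1115 outlier values were left out (0 spots were saturated), repeated spots were averaged and VSN was programmed in R 4.3.3 (90% of probes kept, 7 iterations). Computed and deposited values correlated with r of 0.9999 or more on each array. Probes well above background on all 4 arrays of a genotype (20028, 48.6%) were compared with limma 3.58.1, unpaired and two-sided, with Benjamini-Hochberg adjustment and a threshold of 0.05. The study's SAM test was not run. Exact permutation tests used all 70 assignments (smallest p 0.0286). Fits were tested on simulated data. The number of arrays limits the precision.

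Samples of the same number deviated together (r = 0.44, 0.40, 0.59 and 0.14 for numbers 1, 5, 6 and 7 over the probes tested), so the numbers were taken to pair the samples. Tbx5-/+ replicate 7 correlated higher with another number (0.37). The members, the gene lists and the markers were chosen with earlier results of these data known. Each gene is represented by its brightest tested probe. Named are all probes of the 9 genes, the ligands and partners, and from each other crest list up to 3 genes a direction with the smallest unadjusted p under 0.05. Of these, 2 are not reported here. Summed signals are log2 of the sum of linear VSN values over a list's genes with a probe. Alternatives were other normalizations, filters, blocks, array weights, 1 probe a gene and leaving out each array. A sequence is shown only where a probe lies in coding sequence or where 2 probes overlap. RefSeq (GRCm38.p6) served for names only.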

Additional observations from a re-analysis of the deposited data

Results flagged for a closer look

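In 3 groups of 4 samples there was a value far from the other 3, among 42 groups examined (21 probes in each genotype). Chance gives about 1 such group in 20. Tfap2b at its tested probe A_51_P248345 read 8.72 in Tbx5-/+ replicate 6, against 7.54 to 7.74 in the other 3. The dim Tfap2b probe A_52_P352771 read 5.81 in Tbx5 WT replicate 5, below the others. The dim Pax3 probe A_52_P169747 read 5.70 in Tbx5 WT replicate 6, above the others.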

How the results depend on the processing

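The count of neural crest probes with an adjusted p under 0.05 was 0 under all alternatives except array weights (2, Snai2 and Erbb3) and leaving out Tbx5-/+ replicate 1 (1, Snai2), so leaving out single arrays gave 0 to 1. Over the whole array the same count was 0 in most settings, but 2138 with the replicate block, 8681 with array weights, 3865 without Tbx5-/+ replicate 1 and 208 without Tbx5 WT replicate 1. The replicate block changed no adjusted call of the 9 probes (smallest adjusted p 0.0625, Tfap2b). At an unadjusted p under 0.05, the count of lower probes became 2 with array weights and 0 to 1 over the arrays left out. Of all probes, 34.4% were lower with array weights and 10.1% to 27% over the arrays left out. The count of higher probes became 1 under the 75th percentile scaling, quantile normalization, array-median centring, the replicate block, the array label as a block and array weights, and 0 to 2 over the arrays left out. Of all probes, 15.4%, 9.56%, 16.2%, 5.36%, 4.05% and 17.8% were higher in these settings in turn, and 0.904% to 14.8% over the arrays left out.

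None of the differences that changed sign had an adjusted p under 0.05. The median of all probes moved from -0.19 to 0.10 under the 75th percentile scaling, -0.013 under quantile normalization and 0.13 with arrays centred. Under these 3 settings in turn, Sox9 A_52_P577484 was 0.32, 0.090 and 0.27 and Sox10 0.28, 0.20 and 0.26. Tfap2a turned to 0.0038 under quantile normalization and 0.15 with centring, Erbb3 to 0.040 under the 75th percentile scaling and 0.024 with centring, and Ednrb A_52_P577662 to -0.0058 in the deposited values. Over the arrays left out, values ran from -0.81 to 0.19 for Tfap2a, from -0.22 to 0.096 for Sox9 A_52_P577484, from -0.32 to 0.16 for Sox10 and from -0.078 to 0.12 for Ednrb A_52_P577662. Over all the alternative fits Tfap2b stayed between 0.38 and 1.08 and Snai2 between 0.32 and 0.95. The cause of these changes was not tested. Within array label 1, where no test was made, Tfap2a was 0.58, Sox10 0.47, Sox9 A_52_P577484 0.14 and Snai2 0.13. With 4 arrays a group and probes near background, the difference of Pax3 and Ret could not be measured.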
